A study of Mus musculus with 24 samples.

Results

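Of 44 mouse genes known to be induced by interferon, 40 had a probe set that carries their symbol alone, and those 40 of the 12393 genes so measured are described here. The list names known interferon-stimulated genes and uses no threshold on their values. For the 10 genes with several such probe sets, the brightest by its average on all 24 arrays stands for the gene. Isg15, Tgtp1 and Ifi203 were matched only by probe sets shared with other symbols, and Xaf1 by none in the annotation used, so these 4 genes are named only.

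The arrays held RNA of C57BL/6 mouse blood progenitors in 7 groups. LSK (3 arrays, titled HSC) are sorted normal stem and early progenitor cells, and GMP (4 arrays) are sorted normal granulocyte monocyte progenitors, both untransduced. The other GMP were infected with a vector that carried GFP alone (GFP, 3 arrays), MOZ-TIF2 (MT2, 4 arrays), NUP98-HOXA9 (NHA9, 3 arrays) or AML1-ETO (AE, 4 arrays), and GFP positive cells were harvested 36 hours after infection. L-GMP (3 arrays) are leukemia stem cells with a GMP surface phenotype from the MOZ-TIF2 leukemia model. The oncogenes are fusions of chromatin and transcription factors that are found in acute myeloid leukemia. Fresh GMP were not infected or kept for those hours, so they differ from the GFP cells by more than the vector. The origin of the replicates (animal, culture, infection) is not stated, and p-values therefore measure the spread between arrays, which may be technical.

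Interferons are secreted proteins that warn cells of infection. Type I interferons signal through the receptor chains Ifnar1 and Ifnar2 and the kinases Jak1 and Tyk2 to a complex that holds Stat2 and Irf9 and binds the interferon-stimulated response element (ISRE) in front of many of these genes. Interferon gamma signals through Ifngr1 and Ifngr2, acts on genes with the GAS element, and induces Irf1 and the large GTPase families. In the bone marrow, interferons are known to push stem cells into division, and stem cells are known to hold many interferon-stimulated genes at a higher resting level than their progeny.

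Promoter windows were searched for the letters of both elements, and a match is a description of the sequence, not a bound site. RefSeq windows of 250 bases before to 50 bases after a start site (GRCm38.p6) were given for 35 of the 44 listed genes, in 49 windows. The ISRE core, GAAANNGAAA read on either strand, lay in 18 of the 35 genes (51.4%), against 3.99% of the 27025 genes with a window. The GAS motif, TTCNNNGAA, which reads alike on both strands, lay in 12 of the 35 (34.3%), against 9.55%. Of the 20 genes found higher in LSK than in GMP below, 14 had a window. Of these, Oasl2, Isg20, Irf1, Irf7, Irf9 and Ifitm1 held no ISRE core, and the other 8 held it. That share lay near the 51.4% of the 35 genes. Below are the windows of 3 genes picked among those 8 with the core (Ifit1, Oas1a, Gbp2). Oasl2 and Ifitm1, without the core, differed more between LSK and GMP than Oas1a did. The windows of 2 Ifitm genes that stood out in cultured cells follow. ISRE core matches are in capitals, and the start site follows base 250. In Ifit1 they began 104 and 85 bases before the start, in Oas1a 20 and 14 bases before it and overlapping, in Gbp2 59 bases before it, and in Ifitm3 at bases 3 and 20 after it. The Ifitm6 and Ifitm1 windows held no match, which says only that these letters are not in this window.
Ifit1, chr19:34640639-34640938, plus strand: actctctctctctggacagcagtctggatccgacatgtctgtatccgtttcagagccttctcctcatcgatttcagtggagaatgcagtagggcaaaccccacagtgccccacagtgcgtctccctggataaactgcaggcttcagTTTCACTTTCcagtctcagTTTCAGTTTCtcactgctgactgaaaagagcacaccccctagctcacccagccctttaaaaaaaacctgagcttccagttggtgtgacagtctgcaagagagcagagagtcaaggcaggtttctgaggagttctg
Oas1a, chr5:120907476-120907775, minus strand: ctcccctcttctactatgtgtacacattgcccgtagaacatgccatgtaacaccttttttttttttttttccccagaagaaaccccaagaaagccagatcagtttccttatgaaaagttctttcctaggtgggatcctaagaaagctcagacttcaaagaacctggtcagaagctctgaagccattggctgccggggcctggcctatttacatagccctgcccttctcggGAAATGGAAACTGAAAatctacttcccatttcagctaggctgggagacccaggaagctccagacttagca
Gbp2, chr3:142620413-142620712, plus strand: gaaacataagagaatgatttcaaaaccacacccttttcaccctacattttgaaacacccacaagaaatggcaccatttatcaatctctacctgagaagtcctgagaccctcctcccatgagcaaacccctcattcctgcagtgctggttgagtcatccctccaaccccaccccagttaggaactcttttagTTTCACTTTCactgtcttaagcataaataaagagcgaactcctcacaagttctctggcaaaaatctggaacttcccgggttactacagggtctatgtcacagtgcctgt
Ifitm3, chr7:141010695-141010994, minus strand: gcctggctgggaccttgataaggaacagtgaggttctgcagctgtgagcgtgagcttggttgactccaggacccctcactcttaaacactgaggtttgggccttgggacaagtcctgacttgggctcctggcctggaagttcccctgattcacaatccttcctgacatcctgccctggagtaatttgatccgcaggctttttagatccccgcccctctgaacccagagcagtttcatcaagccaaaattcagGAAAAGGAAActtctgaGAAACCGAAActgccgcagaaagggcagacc
Ifitm6, chr7:141016843-141017142, minus strand: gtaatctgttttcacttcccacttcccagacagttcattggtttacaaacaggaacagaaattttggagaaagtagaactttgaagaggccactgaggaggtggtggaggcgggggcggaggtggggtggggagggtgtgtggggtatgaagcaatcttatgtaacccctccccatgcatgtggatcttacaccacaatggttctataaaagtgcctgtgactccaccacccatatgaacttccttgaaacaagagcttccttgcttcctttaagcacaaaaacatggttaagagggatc

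Levels below are deposited log2 expression estimates, and a difference is the mean of the first group minus that of the second with its standard error. A level of 60 (5.91 on the log2 scale) is the background reading of the study, and 46.1% to 48.3% of probe sets were above it on the 24 arrays. A gene passed the test at a Benjamini-Hochberg adjusted p under 0.05 in limma, adjusted over all probe sets above background on at least 2 arrays of a compared group. As a check of the labels, 5 of 5 tested stem cell markers (Gata2, Hlf, Meis1, Mllt3, Procr) were higher in LSK than in GMP. Of 6 GMP markers 5 were lower, while Cd34 was higher. Of lymphoid markers, 6 of 8 T and NK cell markers and 3 of 4 B cell markers were under 60 on all 24 arrays. The L-GMP arrays stood apart from each other: the mean of 8 neutrophil markers was 11.02 on L-GMP 1, 7.80 on L-GMP 2 and 7.24 on L-GMP 3, against 9.96 to 10.61 in GMP. A tag in the array file names also divides the set, with 15 arrays of tag A, 5 of tag B and 4 without a tag, and what the tag marks is not stated. All GFP arrays have tag A, AE 2, 3 and 4 have tag B, AE 1 has tag A, and L-GMP 1 has tag A while L-GMP 2 and 3 have none.

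Across the 40 genes, LSK had the highest group mean for 16, L-GMP for 15, AE for 4, GFP for 3 and NHA9 for 2. The lowest mean fell in GFP for 15 and in GMP for 12. The mean level of the 40 genes per array was 7.97 to 8.14 in LSK, 6.86 to 7.17 in GMP and 7.15 to 7.19 in GFP, so every LSK array lay above both groups. It ran from 7.04 to 7.82 in MT2, 7.25 to 7.69 in NHA9 and 7.13 to 7.50 in AE. The L-GMP arrays were spread widely, with 8.19 on L-GMP 1, 8.09 on L-GMP 2 and 7.07 on L-GMP 3. L-GMP 1 was the highest array of the series, while L-GMP 3 lay within the GMP range.

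**Figure D1:**
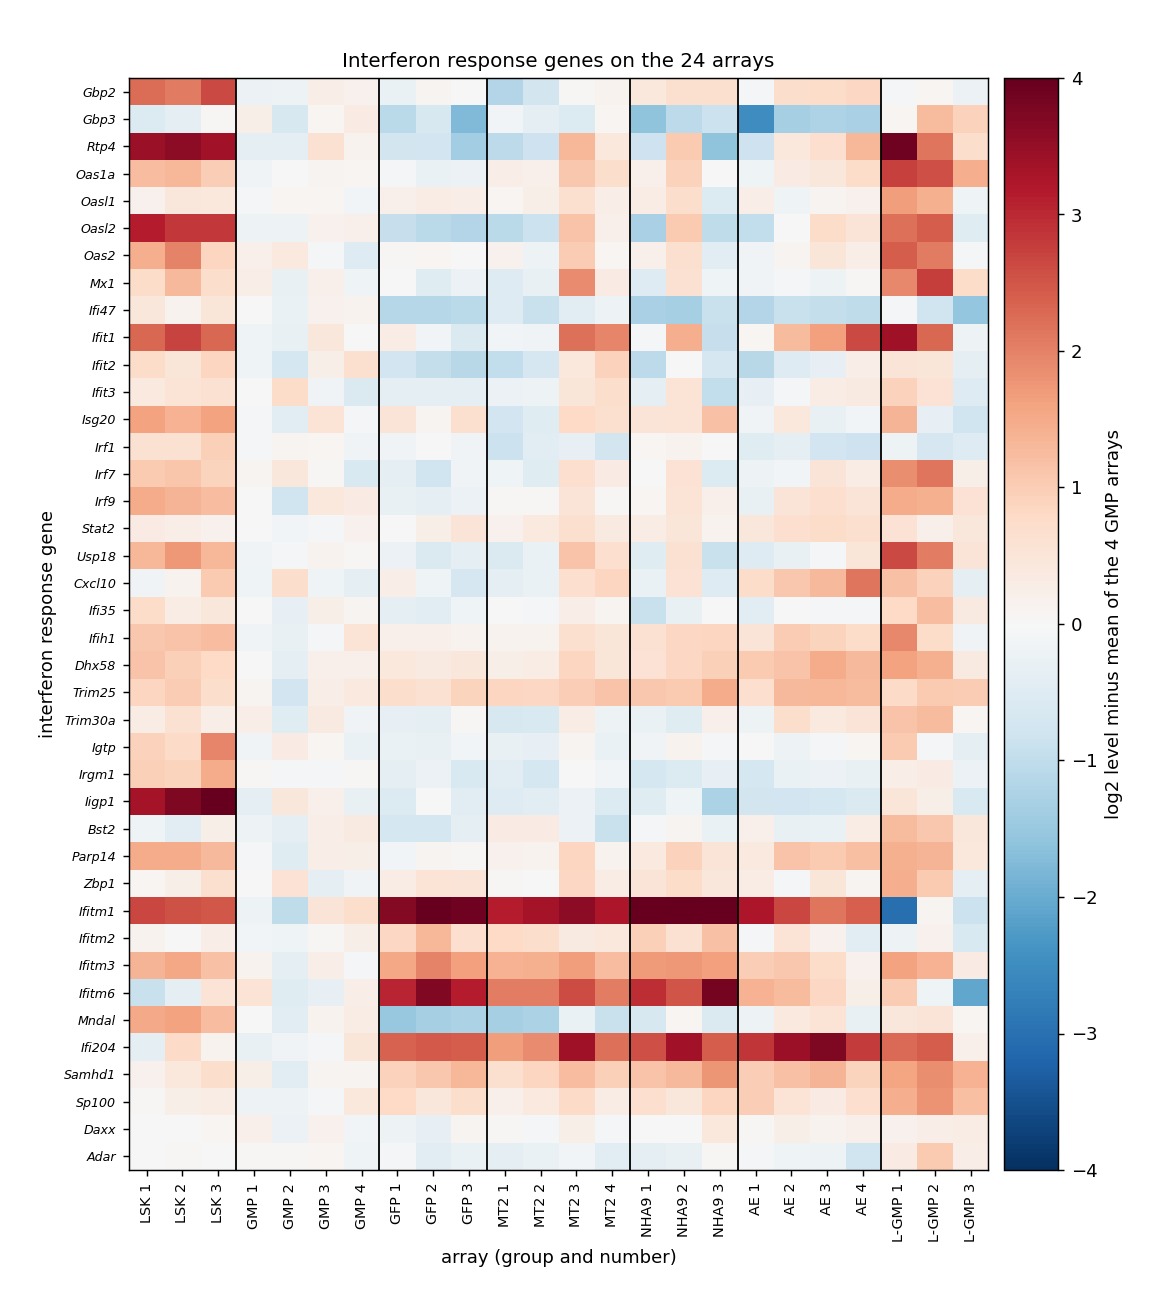
Log2 level of the 40 interferon response genes (rows) on the 24 arrays (columns), minus the mean of the 4 GMP arrays; red is higher, blue lower, and colours stop at 4 log2 units in either direction. The 3 LSK arrays and L-GMP 1 and 2 are red over much of the map, and the 14 infected arrays are red at Ifitm1.

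LSK cells carried more of the interferon response RNA than GMP. Of 35 tested genes, 20 were higher in LSK and 0 lower; of all 11452 probe sets tested, 10.1% were higher and 5.01% lower. The median difference of the 35 genes was 1.00 log2 units, against 0.055 over all probe sets. The higher genes spanned the roles: 4 of 6 tested GTPases, 4 of 6 OAS and RNA defence genes, 3 of 3 transcription factors, 2 of 3 sensors, 2 of 5 membrane factors, 2 of 4 in the set of the ISG15 system, ubiquitin ligases and Rtp4, 1 of 2 IFIT genes, 1 of 1 p200 gene and 1 of 5 others. In bulk RNA, fewer cells with a transcript and less transcript per cell cannot be told apart, here and in each comparison below.

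The GTPases attack the vacuoles of intracellular parasites and are classic targets of interferon gamma in mice. Iigp1 measured 8.31, 8.70 and 9.85 on the LSK arrays and 4.61, 5.44, 5.17 and 4.69 on the GMP arrays. All GMP arrays were under background and all LSK arrays well over it, a difference of 3.97 ± 0.36 (adjusted p = 0.000303), which amounts to at least 8.25-fold. Gbp2, a guanylate-binding protein, measured 9.23, 9.10 and 9.66 in LSK against 6.77, 6.80, 7.28 and 7.18 in GMP, a 5.00-fold difference (2.32 ± 0.20, adjusted p = 0.000242). A second Gbp2 probe set gave 2.42. Igtp (1.20 ± 0.29) and Irgm1 (1.11 ± 0.18), both immunity-related GTPases, were higher too. Gbp3 did not follow Gbp2: it differed by -0.29 and did not pass (LSK 8.61 to 9.21, GMP 8.53 to 9.48). Guanylate-binding and immunity-related GTPases are families of close relatives, and probe sets may take signal from a sister gene.

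Classic antiviral effectors were higher as well. Rtp4, a chaperone of receptor proteins, read 9.18, 9.29 and 9.09 in LSK and 5.37, 5.34, 6.33 and 5.88 in GMP. LSK was 11-fold higher (3.46 ± 0.25, adjusted p = 8.15e-05), with 3 of the 4 GMP arrays under background. The difference was 1.80 for the mean of its probe sets and up to 4.15 with the tag as a factor, and it passed in both. Oasl2, of the oligoadenylate synthetase family that senses double-stranded RNA, read 8.23, 7.92 and 7.89 in LSK and 4.88, 4.88, 5.26 and 5.29 in GMP. With GMP under background this is at least 4.31-fold (2.94 ± 0.18, adjusted p = 2.76e-05). Oas1a (1.19 ± 0.15), which makes the messenger that activates RNase L, Oas2 (1.43 ± 0.30) and the RNA exonuclease Isg20 (1.54 ± 0.22) were higher as well. Ifit1, which binds viral RNA that lacks the host cap mark, read 6.26, 6.65 and 6.27 in LSK and 3.67 to 4.43 in GMP, at least 1.40-fold (adjusted p = 0.000236). Usp18, the protease that removes Isg15 from proteins and damps the type I receptor, read 5.94, 6.35 and 5.93 in LSK and 4.46 to 4.76 in GMP (at least 1.12-fold, adjusted p = 0.000824). Oasl1, Ifit2, Zbp1, Daxx and Adar did not pass.

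Among transcription factors, Irf9, the DNA-binding part of the type I complex, read 8.11, 7.97 and 7.86 in LSK and 6.64, 5.84, 7.06 and 6.95 in GMP (1.36 ± 0.28, 2.56-fold, adjusted p = 0.0115). Irf7, which amplifies type I interferon production, read 6.82, 6.88 and 6.66 against 5.90, 6.22, 5.83 and 5.18. It was 2.00-fold higher (1.00 ± 0.23, adjusted p = 0.0203), with only 1 of the 4 GMP arrays over background. Irf1, the interferon gamma-induced factor, read 9.24, 9.26 and 9.59 against 8.62, 8.75, 8.72 and 8.51 and was 1.64-fold higher (0.72 ± 0.16, adjusted p = 0.0146). Stat2 stayed under background on every LSK and GMP array (5.46 to 5.88) and was not tested. The RNA sensors Ifih1 (1.15 ± 0.21) and Dhx58 (0.96 ± 0.19) were higher; Dhx58 has 3 probe sets and did not pass when their mean was used. Ifitm1, a membrane protein of the family that blocks the entry of viruses, read 11.37, 11.24 and 11.20 in LSK against 8.49, 7.70, 9.23 and 9.40 in GMP (2.57 ± 0.37, 5.93-fold). Ifitm3 differed by 1.36 ± 0.19, while Ifitm2 and Ifitm6 did not pass. Mndal, a nuclear DNA-binding protein of the p200 family, read 10.94, 11.05 and 10.65 in LSK and 8.98 to 9.73 in GMP (2.74-fold). Parp14, an ADP-ribosyltransferase, was 2.67-fold higher.

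Of the 20 genes, 14 passed in each of the 7 fits that left out 1 array, and all 20 passed with the file tag as a factor. The Welch test named in the series' design text passed 6 (Gbp2, Rtp4, Oasl2, Ifit1, Ifitm3, Mndal). LSK differ from GMP in much else. Of other cells' markers, 2 of 5 tested conventional dendritic cell markers (Flt3 and H2-Aa) were higher in LSK. The mean of that list was 7.44 to 8.10 in LSK against 6.25 to 6.73 in GMP. Also higher were 2 of 3 tested erythroid markers (Gata1, Klf1) and the plasmacytoid dendritic cell marker Tcf4. Lower were 3 of 6 tested monocyte and macrophage markers (Ccr2, Csf1r, F13a1), Irf8 and Nkg7. The part of other cells in these differences was not tested.

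**Figure D2:**
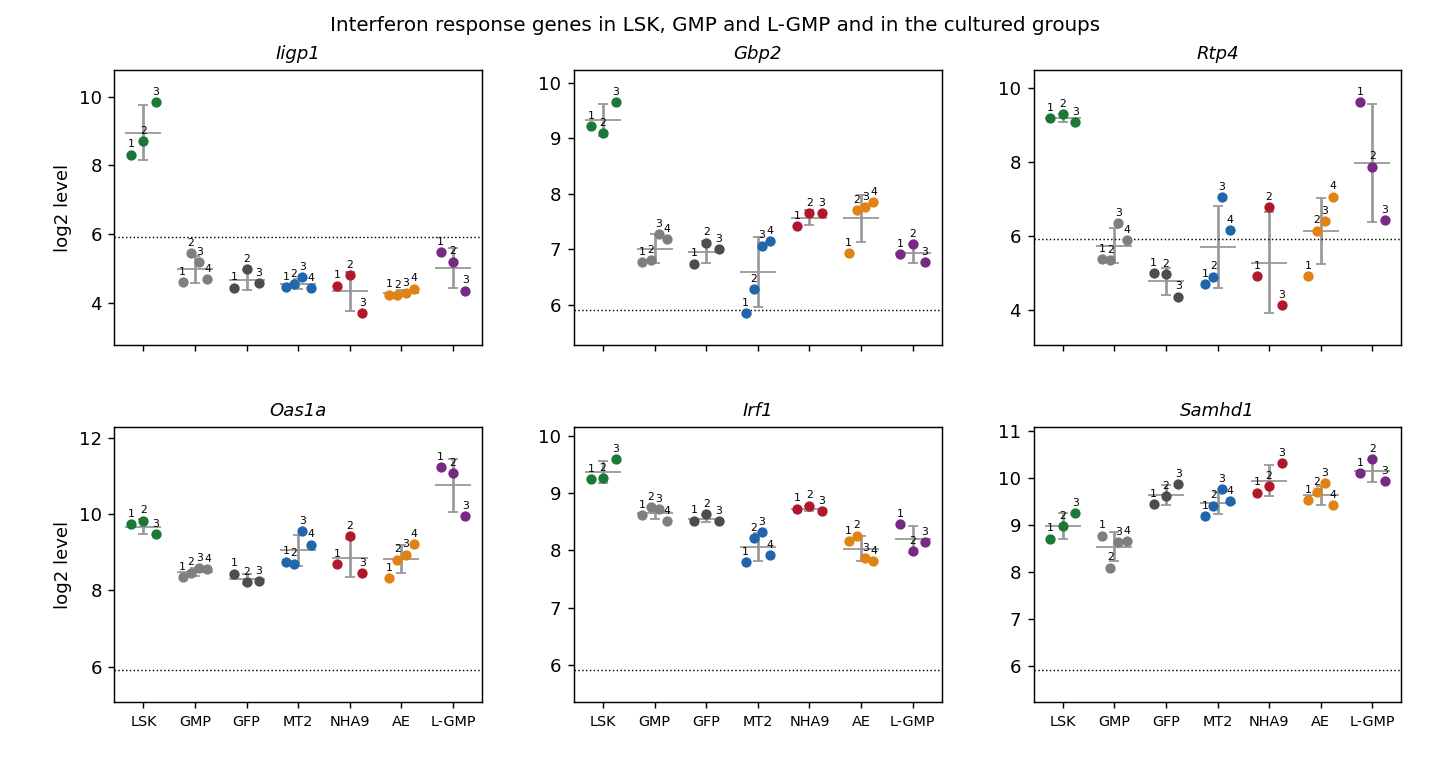
Log2 level of 6 interferon response genes in the 7 groups; points are arrays with their numbers, grey bars mean ± SD, and the dotted line is the background level of 60. Iigp1, Gbp2 and Irf1 have their highest mean in LSK, Oas1a and Samhd1 in L-GMP, and Rtp4 is high on the LSK arrays and on L-GMP 1 and 2.

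Leukemic GMP were compared with normal GMP. Of 37 tested genes 4 were higher, Oas1a, Mx1, Samhd1 and Sp100, and 0 lower, where 3.41% of 11439 probe sets were higher and 1.45% lower. The median difference of the 37 genes was 0.83, against 0.027 over all probe sets. Oas1a read 11.23, 11.07 and 9.95 on L-GMP 1, 2 and 3 and 8.35 to 8.58 in GMP. It was the highest mean of Oas1a in the 7 groups, 4.80-fold over GMP (2.26 ± 0.30, adjusted p = 0.0039). Samhd1, which breaks down the nucleotides that viruses need for DNA synthesis, read 10.11, 10.40 and 9.92 against 8.09 to 8.77 (3.05-fold, adjusted p = 0.00529), but its 3 other probe sets (0.67 to 0.84) did not pass. Sp100, a nuclear body protein, read 8.62, 8.97 and 8.36 against 6.97 to 7.58 (2.81-fold, adjusted p = 0.00935). Mx1, a dynamin-like GTPase whose C57BL/6 allele is known to make no working protein, read 6.54, 7.38 and 5.34 against 4.32 to 4.86, at least 1.43-fold (adjusted p = 0.0431). Of the 7 fits that left out 1 array, Mx1 passed in 1, Sp100 in 6, and Oas1a and Samhd1 in all 7.

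The 3 leukemic arrays were not alike for the antiviral genes. Ifit1 read 7.35 and 6.25 on L-GMP 1 and 2 and 3.76 on L-GMP 3, which lay within the GMP range of 3.67 to 4.43. Oasl2 read 7.30, 7.51 and 4.59, Oas2 read 9.23, 8.89 and 6.76, and Irf7 read 7.64, 7.91 and 6.03. In each of these L-GMP 3 was the low array. Rtp4 read 9.63, 7.87 and 6.42, and Usp18 read 7.25, 6.66 and 5.12 (adjusted p = 0.0573). L-GMP 3 was the lowest leukemic array for 25 of the 30 genes whose mean level was over 60, but for 25.5% of all such probe sets. Without L-GMP 3, 14 of 36 tested genes passed, all higher, where 2.75% of probe sets were higher. These 14 were Rtp4 (adjusted p = 0.0148), Oas1a, Oasl1, Oasl2, Oas2, Mx1, Ifit1, Irf7, Usp18, Dhx58, Parp14, Ifitm3, Samhd1 and Sp100. Without L-GMP 2, Oas1a and Samhd1 were the 2 that passed. With only tag A arrays, which keep L-GMP 1 alone and take its spread from GMP, 9 of 38 passed, all higher, among them Ifit1 and Usp18, where 1.46% of all probe sets were higher. With the tag as a factor over 24 arrays 19 of 37 were higher and 1 lower, where 10.1% and 7.16% of all probe sets were. The 24-array fit without the tag also passed 20 genes, 18 higher and 2 lower, where the shares were 11.4% and 6.09%.

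None of the transcription factors passed in leukemic cells over all 3 arrays. Irf7 differed by 1.41 (adjusted p = 0.121). Irf9 read 8.10, 8.05 and 7.21 against 5.84 to 7.06 in GMP (1.17 ± 0.35, adjusted p = 0.102). Stat2 read 6.15, 5.76 and 6.00 against 5.46 to 5.72 (0.41, adjusted p = 0.308). Irf1 read 8.45, 7.99 and 8.14 against 8.51 to 8.75, a difference of -0.46 ± 0.20 (adjusted p = 0.266), so the Irf1 arrays of leukemic cells lay below those of GMP without passing. The neutrophil marker means given above, the plasmacytoid dendritic cell marker means (7.39 on L-GMP 1, 8.05 on L-GMP 2 and 8.08 on L-GMP 3) and the ratio of 3' to 5' Gapdh signal, highest in the series on L-GMP 1 (4.82 log2 units), also differed between these arrays. The neutrophil mean, like the antiviral genes named above, was lowest on L-GMP 3. It was also below the GMP range on L-GMP 2, where those genes lay above the GMP range. Over all 3 arrays, 2 of 6 tested monocyte and macrophage markers (Cd68, Csf1r) and the stem cell marker Meis1 were higher in L-GMP than in GMP, and Pf4 and Nkg7 were lower. The part of these measures in the result was not tested.

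L-GMP were also set against LSK in a direct fit that was added after the values were seen. Of 38 tested genes 6 were lower and 3 higher in L-GMP, where 10.1% of 11486 probe sets were lower and 7.14% higher. These counts lay not far from those shares, so the values stand for the single genes named and not for the set. The lower ones included GTPases and Irf1: Iigp1, which read 5.47, 5.20 and 4.35 in L-GMP, was at least 8.25-fold lower (-3.94 ± 0.44, adjusted p = 0.00135). Gbp2 read 6.92, 7.10 and 6.77, close to the GMP values, and was 5.28-fold lower than in LSK (-2.40 ± 0.21, adjusted p = 0.000487). Irf1 was 2.26-fold lower (adjusted p = 0.00837), Irgm1 1.98-fold (adjusted p = 0.0298), Mndal 2.15-fold and Ifitm1 14.2-fold. Ifitm1 read 5.68, 8.80 and 7.83 in L-GMP against 11.37, 11.24 and 11.20 in LSK. The higher ones were Sp100 (2.45-fold), Samhd1 (2.25-fold) and Bst2. The other Samhd1 probe sets differed by 0.656, 0.785 and -0.158 and did not pass, so the direction depended on the probe set. Bst2, the tetherin that holds virus particles on the cell surface, read 8.26, 8.06 and 7.42 against 6.54 to 7.21 (2.08-fold, adjusted p = 0.0382). Gbp2, Irf1, Iigp1, Ifitm1 and Sp100 passed in all fits that left out 1 array. Without L-GMP 1, 17 of 35 tested genes passed, but so did 39.3% of all probe sets. Without L-GMP 3, 14 of 37 passed, where 16.2% of all probe sets did. Without LSK 1 or LSK 2, 5 of 38 passed, where 6.6% and 7.49% did. Oas1a (10.75 against 9.67), Irf7, Usp18 and Ifit1 did not pass with all arrays in. Of other cells' markers, 3 of 6 tested monocyte and macrophage markers (Cd68, Csf1r, F13a1) were higher in L-GMP, as were the GMP markers Ctsg and Mpo and the plasmacytoid marker Bst2, itself one of the 40 genes. All 5 tested stem cell markers were lower, with Cd34, 3 of 5 conventional dendritic cell markers (Flt3, H2-Aa, H2-Ab1), Nkg7, Gata1, Klf1, Itga2b and Pf4. Their part in the result was not tested.

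The effect of culture and the empty vector was read from GFP cells against fresh GMP. Of 29 tested genes 6 were higher and 3 lower, where 8.25% of 11363 probe sets were higher and 7.43% lower. The Ifitm family supplied 4 of the higher genes. Ifitm1 read 12.38, 13.14 and 12.60 in GFP and 8.49, 7.70, 9.23 and 9.40 in GMP, a 16.0-fold difference (4.00 ± 0.39, adjusted p = 0.000251). Ifitm6, a relative of unclear role that is known from myeloid cells, read 10.68, 11.35 and 10.76 against 7.14 to 8.17 (9.82-fold, adjusted p = 0.000115). Ifitm3 read 12.51, 12.94 and 12.58 against 11.08, 10.60, 11.22 and 10.90 (3.31-fold), and Ifitm2 was 1.92-fold higher (0.94 ± 0.19). The 4 genes are close relatives, so their probe sets may share signal. Samhd1 (1.10 ± 0.20) and Sp100 (0.66 ± 0.19) were the other higher genes.

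The genes that were lower in GFP cells were Mndal, Gbp3 and Ifi47. Mndal read 7.92, 8.10 and 8.15 in GFP and 8.98 to 9.73 in GMP (-1.37 ± 0.19, 2.58-fold lower, adjusted p = 0.00183), the lowest mean of the 7 groups. Ifi47, an immunity-related GTPase, read 8.83, 8.84 and 8.88 against 9.69 to 10.12 (-1.12 ± 0.15, adjusted p = 0.00158). Gbp3 read 8.07, 8.52 and 7.39 against 8.53 to 9.48 (-1.17 ± 0.31, adjusted p = 0.0311). Antiviral genes that were higher in LSK gave few values over background here. Ifit1, Oasl2 and Usp18 stayed under 60 on all GFP and GMP arrays. Rtp4 did so on all GFP arrays and on 3 of 4 GMP arrays. Mx1, not tested in LSK against GMP, was under 60 on all LSK, GFP and GMP arrays. Of 6 tested monocyte and macrophage markers, 5 were higher in GFP (list mean 8.93 to 8.98 against 7.35 to 8.07), and 2 of 8 neutrophil markers were lower and 3 higher; their part in the result was not tested. Without GMP 2, which was the lowest GMP array for 73.3% of all probe sets with a mean over 60, 16 genes passed, where 36% of probe sets did.

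**Figure D3:**
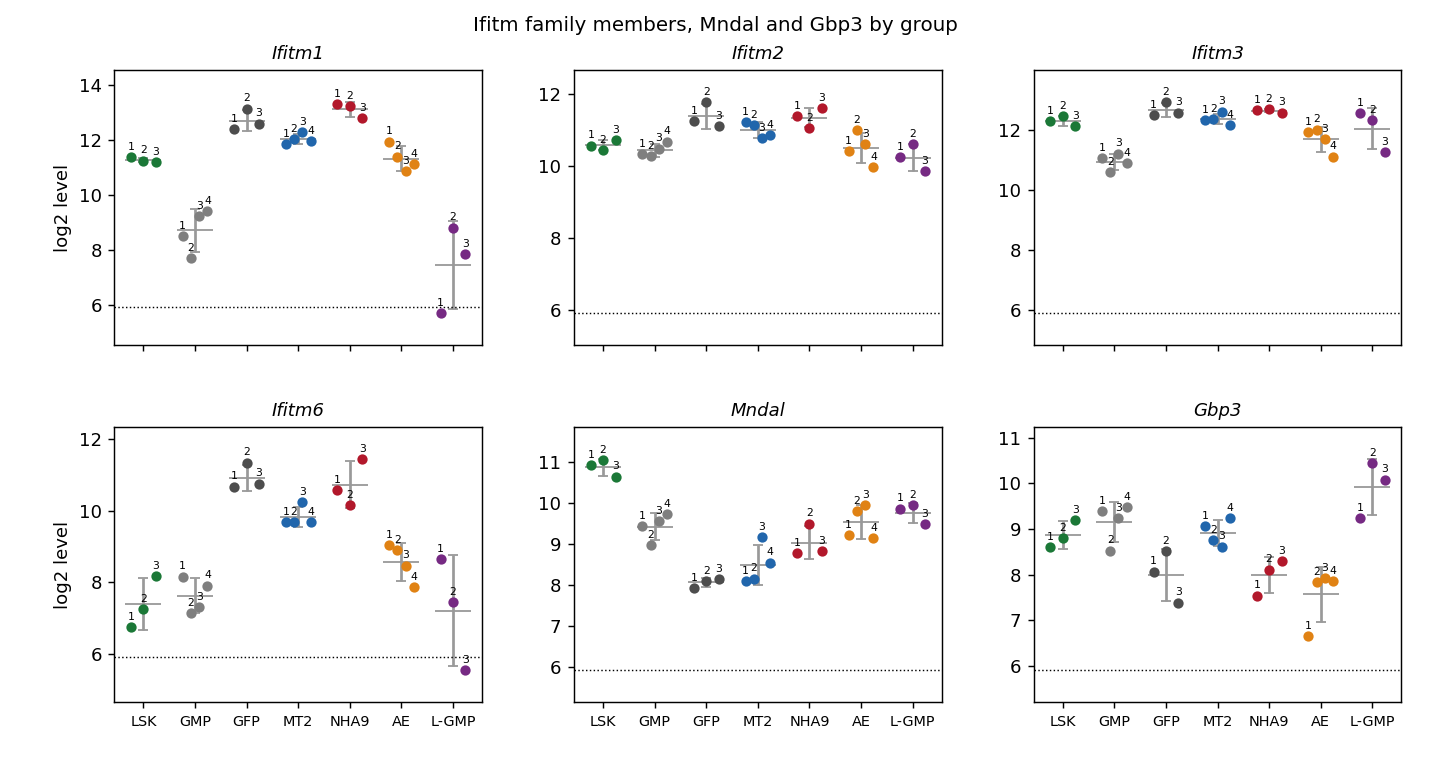
Log2 level of the 4 Ifitm genes, Mndal and Gbp3 in the 7 groups; points are arrays with their numbers, grey bars mean ± SD, and the dotted line is the background level of 60. The GFP and NHA9 arrays lie above the AE arrays for Ifitm1, Ifitm3 and Ifitm6, and Mndal has its lowest mean in GFP.

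With AML1-ETO, Ifitm genes fell and a small mixed group rose. Against GFP 5 of 33 tested genes were higher and 4 lower, where 8.75% of 11393 probe sets were higher and 2.21% lower. All 4 lower genes were Ifitm genes. Ifitm6 read 9.03, 8.91, 8.47 and 7.88 on AE 1 to 4, below each GFP array, a 5.12-fold drop (-2.36 ± 0.28, adjusted p = 0.00176). Ifitm1 read 11.94, 11.39, 10.85 and 11.11 (-1.39 ± 0.27, 2.61-fold, adjusted p = 0.012), and Ifitm3 read 11.93, 12.02, 11.69 and 11.12 (-0.99 ± 0.22, 1.98-fold, adjusted p = 0.0234). Ifitm2 fell by 0.89 (adjusted p = 0.0474). These are the genes that were higher in GFP than in fresh GMP, and both comparisons use the same GFP arrays. The AE level of Ifitm1 was still above all 4 GMP arrays.

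The 5 genes that rose were of other roles. Mndal read 9.21, 9.81, 9.96 and 9.14 in AE, all above the GFP arrays (1.47 ± 0.22, 2.77-fold, adjusted p = 0.00373), and a second Mndal probe set gave 1.32. Cxcl10, the chemokine that draws T cells to inflamed sites, read 6.13, 6.47, 6.70 and 7.53 in AE and was under background in GFP (5.66, 5.22 and 4.72). That is at least 1.74-fold (1.51 ± 0.32, adjusted p = 0.0188), and no other group had all arrays over 60. Parp14 read 7.50, 8.25, 8.17 and 8.31 against 7.00, 7.22 and 7.16 and rose 1.91-fold (0.93 ± 0.21, adjusted p = 0.0209), Dhx58 1.78-fold (0.84 ± 0.15, adjusted p = 0.00857) and Ifih1 1.53-fold (0.61 ± 0.15, adjusted p = 0.0344). Dhx58 did not pass when the mean of its 3 probe sets was used, here or in MOZ-TIF2 against AML1-ETO.

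The factors did not pass: Irf9 differed by 0.65 (6.33 on AE 1 and 7.12, 7.29 and 7.13 on AE 2 to 4, adjusted p = 0.0874), Irf1 by -0.53 (7.82 to 8.26, adjusted p = 0.0556), Irf7 by 0.55 (5.58 to 6.31, adjusted p = 0.135) and Stat2 by 0.38 (6.02 to 6.30, adjusted p = 0.151).

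AE 1, the tag A array, was lower than the other AE arrays in many of the genes. Rtp4 read 4.91 on AE 1 and 6.14, 6.40 and 7.06 on AE 2 to 4, and Ifit1 read 4.03 and 5.23, 5.60 and 6.59. Without AE 1 the count rose to 14 higher and 5 lower of 33, but the share of all probe sets rose as well, to 19.9% higher and 7.14% lower. The genes gained included Gbp2 (0.81), Irf9 (0.87), Oas1a (0.69), Rtp4, Irf7, Trim25, Trim30a, Ifit2 and Ifi204 as higher and Irf1 (-0.57) as lower. Within tag A, with AE 1 alone and its spread taken from GFP, Ifitm6 (-1.90), Mndal (1.16), Dhx58 (0.64), Ifitm2 (-0.98) and Bst2 (0.78) passed. With the tag as a factor Ifitm6 (-2.25), Mndal (1.25), Ifitm2 (-0.95) and Gbp3 (-0.94) passed. Ifitm6 and Mndal also passed in every fit that left out 1 array; without GFP 2 they were the 2 genes left, without GFP 3 there were 4 (with Dhx58 and Ifitm1), and without GFP 1 or AE 3 there were 5. Of other cells' markers, 2 of 6 tested monocyte and macrophage markers rose (Cd68, Csf1r), as did Tcf4, H2-Ab1, Cd79b and Pf4. Of 6 GMP markers 3 fell (Cebpa, Elane, Mpo) and Cd34 rose; their part in the result was not tested.

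With MOZ-TIF2 6 of 33 tested genes passed, 3 higher and 3 lower, where 8.91% of 11113 probe sets were higher and 2.93% lower than in GFP. The share that rose lay near the background, so the higher values stand for the single genes named. Gbp3 read 9.06, 8.76, 8.61 and 9.24 on MT2 1 to 4, above all GFP arrays (0.93 ± 0.25, 1.90-fold, adjusted p = 0.0376). Ifi47 read 9.45, 9.07, 9.53 and 9.75 against 8.83 to 8.88 and rose 1.52-fold (0.60 ± 0.15, adjusted p = 0.0323). Oas1a read 8.75, 8.70, 9.56 and 9.20 against 8.21 to 8.44 (1.69-fold, adjusted p = 0.0372). Gbp3 and Ifi47 were lower in GFP than in fresh GMP, a comparison that shares these GFP arrays. Ifitm6 read 9.69, 9.69, 10.24 and 9.68 and fell 2.15-fold (-1.10 ± 0.20, adjusted p = 0.0116). Ifitm1 read 11.85, 12.04, 12.28 and 11.95 and fell by 0.68 (adjusted p = 0.0392), and Irf1 read 7.80, 8.21, 8.32 and 7.92 against 8.51 to 8.63 and fell by 0.49 (adjusted p = 0.0492). Irf9 (6.66 to 7.14, 0.47, adjusted p = 0.0553), Irf7 (5.30 to 6.46, 0.52, adjusted p = 0.217) and Stat2 (5.75 to 6.19, 0.13, adjusted p = 0.581) did not pass. None of the 6 calls held in all fits that left out 1 array, and none passed in the 24-array fit, with the tag as a factor or without it. With the tag the differences kept their direction, as for Ifitm6 (-1.06), Ifitm1 (-0.68), Gbp3 (0.76) and Ifi47 (0.54). Between 1 and 5 genes passed when an array was left out: Gbp3 alone without GFP 2, Ifitm6 alone without GFP 3, 2 genes without MT2 1, MT2 4 or GFP 1, and 3 without MT2 2. Of neutrophil markers 5 of 8 fell with MOZ-TIF2 (list mean 8.94 to 9.88 against 10.58 to 10.64), as did F13a1. Meis1 and 2 of 3 tested plasmacytoid dendritic cell markers (Irf8, Tcf4) rose. The part of these markers in the result was not tested.

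NUP98-HOXA9 gave 0 of 27 tested genes past the threshold, and only 0.2% of 10981 probe sets passed in either direction. In limma 9 of the 27 genes had an unadjusted p under 0.05, as did 1154 of the 10981 probe sets. Mndal read 8.78, 9.50 and 8.83, above all GFP arrays (0.98 ± 0.21, adjusted p = 0.155), and Ifih1 read 7.92, 8.15 and 8.19 against 7.47 to 7.52 (0.59 ± 0.13, adjusted p = 0.199). Irf9 read 6.70, 7.15 and 6.82 (0.57, adjusted p = 0.288) and Irf1 8.72, 8.78 and 8.68 (0.17, adjusted p = 0.622), while Irf7 (5.76, 6.36 and 5.24) and Stat2 (5.85, 6.03 and 5.70) were not tested. Ifitm1 read 13.30, 13.24 and 12.79, the highest group mean, and differed by 0.40 from GFP. Without NHA9 3, the 1 gene that passed was Mndal (1.08, adjusted p = 0.0417).

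All 11 oncogene arrays together against GFP gave 0 of 34 tested genes and 0% of 11632 probe sets past the threshold in limma. There 8 of the 34 genes had an unadjusted p under 0.05, as did 1250 of the 11632 probe sets. The Welch test of the design text passed 2 genes (Irf9 and Mndal). Irf9 had the smallest adjusted p, with 6.33 to 7.29 (median 6.82) on the oncogene arrays and 6.22 to 6.40 in GFP (0.57 ± 0.18, adjusted p = 0.326). Mndal followed with 8.09 to 9.96 (median 9.14) against 7.93 to 8.15 (0.96 ± 0.33, adjusted p = 0.374). Irf7 (5.24 to 6.46, median 5.76; 0.51), Stat2 (5.70 to 6.30, median 6.02; 0.20) and Irf1 (7.80 to 8.78, median 8.21; -0.32) did not pass. The fits of the 3 oncogenes and this one share the GFP arrays.

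**Figure D4:**
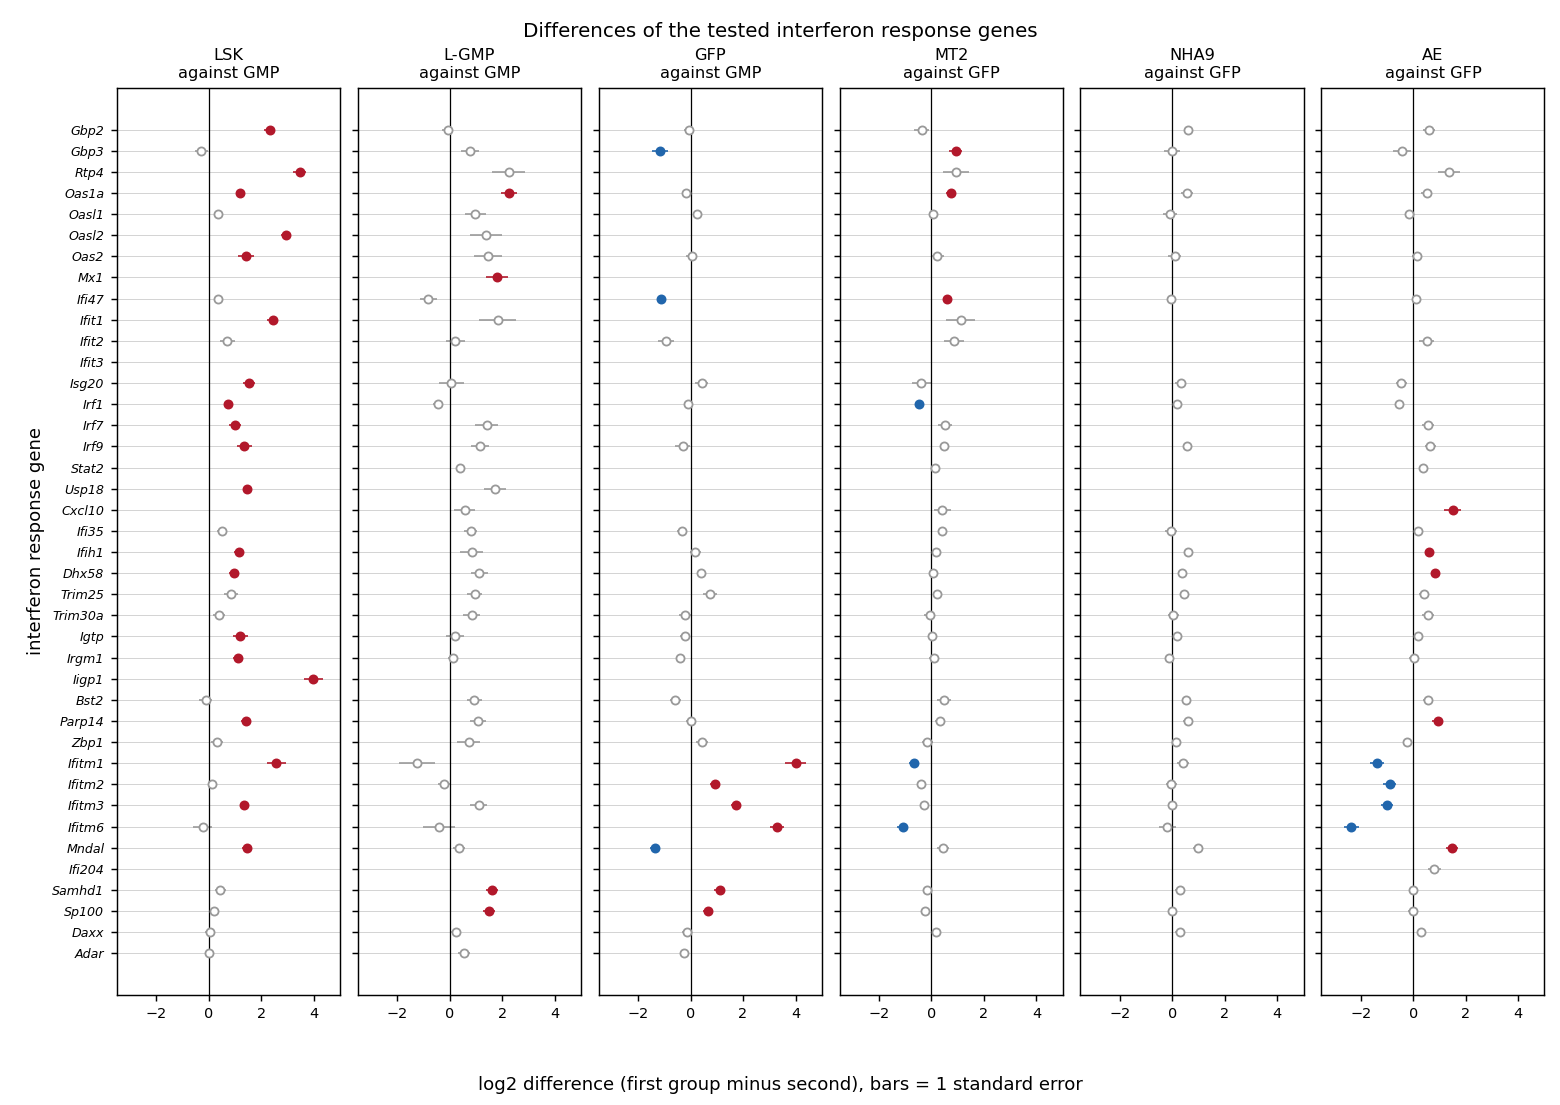
Log2 difference ± standard error of each tested interferon response gene (rows) in 6 comparisons (panels); filled red points passed as higher, filled blue as lower, open points did not pass, and empty rows were not tested. LSK against GMP has 20 filled points, all to the right of 0, while the Ifitm genes are to the right in GFP against GMP and to the left in AE against GFP.

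Differences between the oncogenes were tested in the 14 infected arrays. MOZ-TIF2 against AML1-ETO gave 5 higher and 7 lower of 34 tested genes. Of 11411 probe sets 12.3% were higher and 16.2% lower, so neither share lay far from the background. Gbp3 (1.35 ± 0.29, 2.55-fold, adjusted p = 0.00351), Ifitm6 (1.25 ± 0.29), Ifitm1 (0.71), Ifitm3 (0.68) and Ifi47 (0.49) were higher with MOZ-TIF2. Cxcl10 read 5.01, 5.11, 6.08 and 6.25 with MOZ-TIF2, so the highest of these overlapped AE 1 (-1.09 ± 0.35, adjusted p = 0.0303). Gbp2 read 5.85, 6.28, 7.07 and 7.15 against 6.93, 7.70, 7.76 and 7.85, and Ifi204, a p200 gene, 4.46, 4.70, 6.18 and 5.02 against 5.66, 6.24, 6.55 and 5.60, both with overlap. Mndal (-1.04 ± 0.25), Gbp2 (-0.97 ± 0.27), Ifi204 (-0.92), Dhx58 (-0.77), Parp14 (-0.62) and Ifih1 (-0.44) were lower too. Parp14 differed by 0.006 within tag A. Of these 12 calls 6 held in every fit that left out 1 array (Gbp2, Gbp3, Dhx58, Ifitm3, Ifitm6, Mndal). Without MT2 2 or without AE 3, 7 passed. Within tag A, which keeps AE 1 alone, Gbp3 and Ifi47 were the 2 that passed.

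NUP98-HOXA9 against AML1-ETO gave 5 higher and 1 lower of 33, where 2.62% and 4.61% of 11377 probe sets passed. Ifitm6 read 10.59, 10.15 and 11.45 with NUP98-HOXA9, above every AE array (2.16 ± 0.31, 4.46-fold, adjusted p = 0.00072). Ifitm1 (1.79 ± 0.24, 3.45-fold, adjusted p = 0.000492), Ifitm3 (0.96 ± 0.19), Ifitm2 (0.86 ± 0.23) and Irf1 (0.70 ± 0.15) were also higher, and Cxcl10 was lower (-1.39 ± 0.38, adjusted p = 0.0387). With the tag as a factor none of the 6 passed, and within tag A Ifitm1, Ifitm3 and Ifitm6 were the 3 that did. MOZ-TIF2 against NUP98-HOXA9 gave 1 higher, Ifi47 (0.65 ± 0.16), and 3 lower, Ifitm1 (-1.08 ± 0.24), Gbp2 (-0.99 ± 0.29, with -0.80 and adjusted p = 0.111 for its other probe set) and Irf1 (-0.67 ± 0.15), of 33, where 3.52% and 4% of 11171 probe sets passed. Without MT2 1, NHA9 1 or NHA9 2, 0 passed.

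Several antiviral genes varied widely between arrays of the same infected group. Ifit1 read 3.86, 3.83, 6.16 and 5.91 on MT2 1 to 4, and 3.89, 5.41 and 3.05 on NHA9 1 to 3. MT2 3 and NHA9 2 were again the high arrays for Mx1 (4.11, 4.32, 6.49 and 4.95 in MT2, and 4.11, 5.23 and 4.42 in NHA9). Oasl2 read 3.99, 4.21, 6.22 and 5.29 in MT2 and 3.79, 6.12 and 4.07 in NHA9. Usp18 read 5.76 on MT2 3 and 5.24 on NHA9 2, against 4.03 to 4.38 on the GFP arrays. Of these values, only Ifit1 on MT2 3 and MT2 4, Mx1 on MT2 3, and Oasl2 on MT2 3 and NHA9 2 were over background. The rest were under it, which limits what their spread can mean. MT2 3 was the highest MT2 array for 23 of the 30 genes with a mean level over 60, and for 16.6% of all such probe sets. NHA9 2 was the highest NHA9 array for 15 of the 30, and for 19.1% of all. AE 1 was the lowest AE array for 17 of the 30, and for 49.8% of all, a share near that of the array as a whole. Ifit1 on the 3 GFP arrays read 4.25, 3.85 and 3.38 there. Both MT2 3 and NHA9 2 carry tag A, as do MT2 1, MT2 2 and NHA9 1. In MOZ-TIF2 against GFP, Ifit1 (1.11 ± 0.56, adjusted p = 0.21) and Rtp4 (0.93 ± 0.49, adjusted p = 0.227) did not pass.

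**Figure D5:**
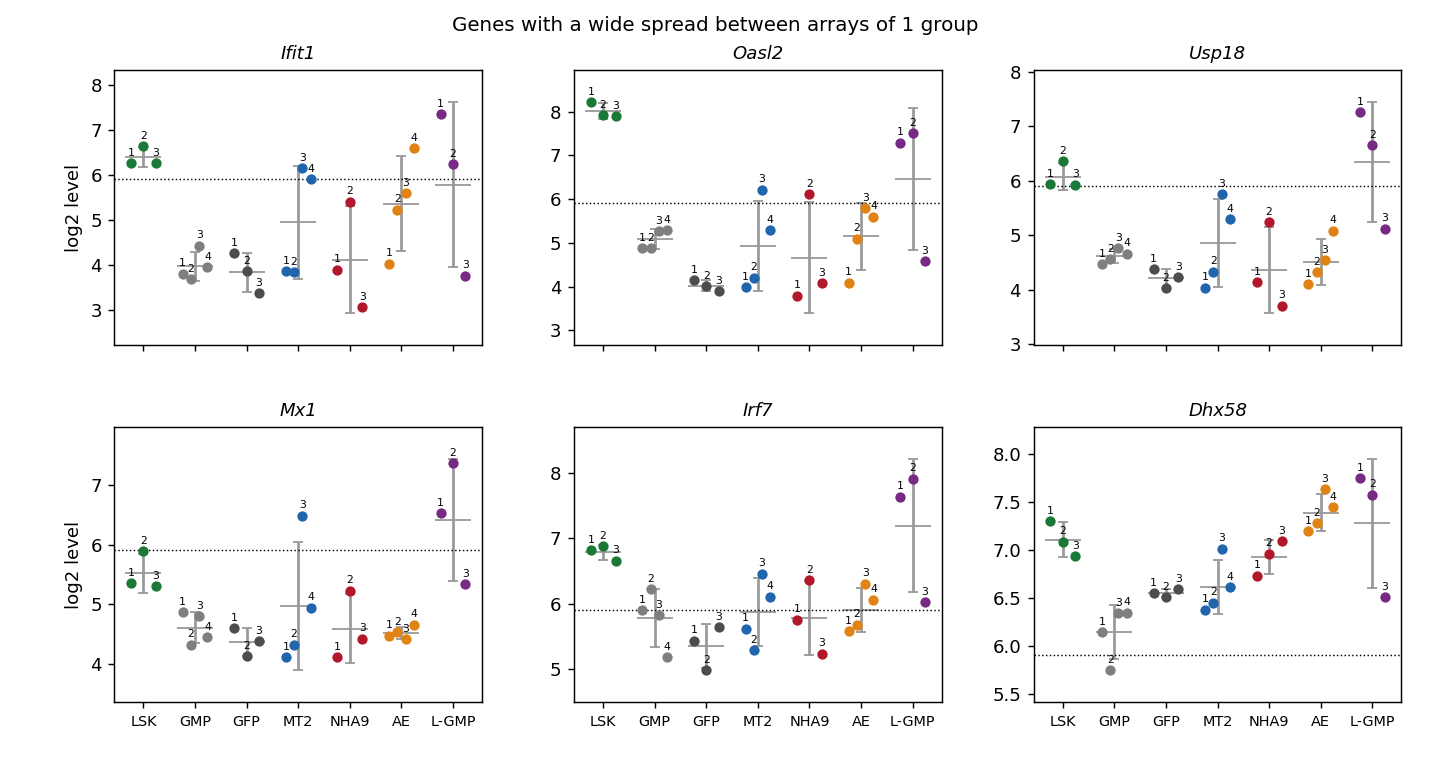
Log2 level of 6 antiviral genes in the 7 groups; points are arrays with their numbers, grey bars mean ± SD, and the dotted line is the background level of 60. MT2 3, NHA9 2 and L-GMP 1 and 2 are the high arrays of their groups for Ifit1, Oasl2, Usp18, Mx1 and Irf7.

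None of the interferon genes measured was above background. Ifnb1, Ifng, Ifna1, Ifna2, Ifna4, Ifna5 and Ifna11 were under 60 on all 24 arrays, as was Il12b, a subunit of a cytokine that induces interferon gamma. Il18, a partner of that cytokine, was 6.91-fold higher in LSK than in GMP (8.81 ± 0.17 against 6.02 ± 0.06, mean ± SD, adjusted p = 1.39e-05). Il15 was also higher in LSK (2.41-fold). Il12a was 5.04-fold higher in L-GMP than in GMP (8.43 ± 0.60 against 6.10 ± 0.26, mean ± SD, adjusted p = 0.00284), and 2.34-fold in LSK. Il18 rose 3.60-fold with AML1-ETO, while Il15 fell 1.67-fold (adjusted p = 0.0353). Il12a was lower in GFP than in fresh GMP (adjusted p = 0.0173). It was higher with MOZ-TIF2 than in GFP (adjusted p = 0.028), at a mean of 5.90, near background. In L-GMP against LSK, Il18 (at least 7.47-fold) and Il15 (at least 3.49-fold) were lower.

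Of 56 other genes of the pathway, 45 were on the array. In LSK against GMP 14 of 40 tested were higher and 2 lower, where 10.1% and 5.01% of all probe sets were. The higher ones held antiviral genes such as Rsad2 (viperin, 1.74 ± 0.27), Epsti1 (1.93 ± 0.29), Parp12 (at least 2.22-fold) and Parp9 (1.56 ± 0.20), and Uba7, the enzyme that activates Isg15 (1.51 ± 0.13). The feedback inhibitor Socs3 was at least 2.65-fold higher, and the receptor chain Ifngr1 was 2.41-fold lower. Irf8, the factor that drives monocyte and dendritic fates, was 3.07-fold lower. In L-GMP against GMP 4 of 41 were higher and 0 lower, where 3.41% and 1.45% of all probe sets were: Ifi27l2a (9.93-fold, adjusted p = 0.00123), Ifnar2 (2.42-fold), Socs3 (at least 1.75-fold) and Parp12 (at least 1.93-fold). The GMP mean of Ifi27l2a (5.67) was under background, which limits what its fold can mean. In L-GMP against LSK 5 of 41 were higher and 5 lower, where 7.14% and 10.1% of all probe sets were, so neither share lay far from the background. The higher ones were the receptor chains Ifnar1 (1.90-fold), Ifnar2 (2.57-fold) and Ifngr1 (2.35-fold), with Ifi27l2a and Ifi30. The lower ones were the kinase Jak1 (1.79-fold), Epsti1 (2.74-fold), Irf2, Pml and Trim21.

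In GFP against GMP 5 of 37 were higher and 5 lower, where 8.25% and 7.43% of all probe sets were. Socs3 stood out with 10.26 to 10.47 in GFP against 3.83 to 4.61 in GMP, at least 21.6-fold (adjusted p = 1.96e-06). Ifi30, a lysosomal thiol reductase of antigen processing, was 8.48-fold higher, Myd88, the Toll-like receptor adaptor, 2.32-fold, and Irf8 was 3.36-fold lower. With AML1-ETO 4 of 39 rose, among them the receptor chain Ifnar1 (2.07-fold, adjusted p = 0.012) and the RNA sensor Tlr7 (2.44-fold, adjusted p = 0.0123), and 2 fell (Lgals9 and Pml), where 8.75% of all probe sets were higher and 2.21% lower, so the share of 4 lay near the background. With MOZ-TIF2 3 of 35 rose (Irf8, 2.14-fold; Eif2ak2; Psmb8) and 3 fell (Jak2, Sting1, Pml), where 8.91% of all probe sets were higher and 2.93% lower, so the share that rose lay near the background. With NUP98-HOXA9 0 of 36 passed in limma.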

How the data were processed

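RNA of 24 samples was hybridised to 1 array type, and the authors deposited log2 expression estimates made with GCRMA 2.4.1 from MAS5 cell files, per the submitters' processing notes and the design text. Outlier arrays had been removed by the authors, per the design text, without naming them. The values were used as they stand, without the 64 controls among 22690 probe sets. Genes were named from the platform annotation where a probe set had 1 symbol. The genes and lists were chosen with earlier results of these data known.

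Comparisons were fitted on the arrays of the compared classes with limma 3.58.1 (lmFit and eBayes, R 4.3.3); contrasts between oncogenes used the 14 infected arrays. Probe sets over 60 on at least 2 arrays of a compared group were tested, with Benjamini-Hochberg adjustment over all of them; the present flags that the design text also names were not used here. Where every array of the dimmer group was under 60, a fold is a lower bound, the brighter mean against 60. The rule for genes shown on every array took, per comparison, up to 6 with the largest change past the threshold, or the 2 with the smallest adjusted p where fewer than 2 passed, and Stat2, Irf1, Irf7 and Irf9; other genes were named after their values were seen. Alternatives were the Welch test of the design text, no filter, quantile normalization, tag A arrays only, the tag as a factor, all 24 arrays in 1 fit, a replicate block, the mean of a gene's probe sets and leaving out each array. Fits were tested on simulated data. The number of arrays limits the precision.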

Additional observations from a re-analysis of the deposited data

Results flagged for a closer look

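In groups of 4 arrays, 10 of 120 gene and group pairs held an array far from the other 3, where chance marks about 1 in 20. Over all probe sets above 60 on at least 2 arrays of such a group the share was 6.89% (7.26% in AE, 6.32% in MT2 and 7.07% in GMP), so the count lay near that of the arrays as a whole. In AE the far array was AE 1, low for Gbp2 (6.93, next 7.70), Gbp3 (6.66, next 7.83), Ifi35 (7.34, next 7.74), Trim25 (9.38, next 9.97) and Irgm1 (6.45, next 6.86). In MT2 it was MT2 3, high for Irf9 (7.15, next 6.68), Igtp (7.98, next 7.61), Parp14 (7.98, next 7.27) and Ifitm6 (10.24, next 9.69). In GMP it was GMP 4, low for Adar (5.79, next 6.02). Groups of 3 were not examined in this way.

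Effects of the oncogenes differed from each other for 22 gene and contrast pairs. Of all probe sets, 3.52% were higher and 4% lower in MOZ-TIF2 against NUP98-HOXA9. The shares were 12.3% and 16.2% in MOZ-TIF2 against AML1-ETO, and 2.62% and 4.61% in NUP98-HOXA9 against AML1-ETO. In MOZ-TIF2 against AML1-ETO the counts (5 higher and 7 lower of 34) lay not far from those shares. With MOZ-TIF2 against NUP98-HOXA9 the pairs were Ifitm1 (-1.08, adjusted p = 0.0152), Gbp2 (-0.99, adjusted p = 0.0483), Irf1 (-0.67, adjusted p = 0.0157) and Ifi47 (0.65, adjusted p = 0.0234). With MOZ-TIF2 against AML1-ETO they were Gbp3 (1.35, adjusted p = 0.00351), Ifitm6 (1.25, adjusted p = 0.00482), Cxcl10 (-1.09, adjusted p = 0.0303), Mndal (-1.04, adjusted p = 0.00643), Gbp2 (-0.97, adjusted p = 0.0131), Ifi204 (-0.92, adjusted p = 0.0469), Dhx58 (-0.77, adjusted p = 0.00163), Ifitm1 (0.71, adjusted p = 0.027), Ifitm3 (0.68, adjusted p = 0.01), Parp14 (-0.62, adjusted p = 0.0354), Ifi47 (0.49, adjusted p = 0.0213) and Ifih1 (-0.44, adjusted p = 0.0335). With NUP98-HOXA9 against AML1-ETO they were Ifitm6 (2.16, adjusted p = 0.00072), Ifitm1 (1.79, adjusted p = 0.000492), Cxcl10 (-1.39, adjusted p = 0.0387), Ifitm3 (0.96, adjusted p = 0.00652), Ifitm2 (0.86, adjusted p = 0.0339) and Irf1 (0.70, adjusted p = 0.00968).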

How the results depend on the processing

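Counts of genes past the threshold depended on the fit, and so did the share of all probe sets past it. In L-GMP against GMP 3.41% were higher in the main fit, 10.1% with the tag as a factor and 11.4% with all 24 arrays in 1 fit. In MT2 against GFP these shares were 8.91%, 1.83% and 1.3%. The counts here mostly stand without such a share, so they are not results about the genes as a set. The Welch test of the design text passed 2 genes for all oncogenes against GFP (limma 0), 6 for LSK against GMP (limma 20), and 0 for MT2, AE, L-GMP against GMP, L-GMP against LSK and the 3 oncogene contrasts. Quantile normalization left 3 of 6 for MT2. All 24 arrays in 1 fit gave 1 for all oncogenes, 0 for MT2, 20 for L-GMP against GMP, 2 for MT2 against NHA9, 6 for MT2 against AE and 15 for L-GMP against LSK; the mean of 3 group means gave 2 for all oncogenes. Tag A arrays alone gave 2 for MT2, 1 for NHA9, 5 for AE, 9 for L-GMP against GMP, 2 for MT2 against AE, 3 for NHA9 against AE and 23 for L-GMP against LSK. The tag as a factor gave 0 for MT2, 4 for AE, 20 for L-GMP against GMP, 5 for MT2 against AE, 0 for NHA9 against AE and 15 for L-GMP against LSK. The causes were not tested. Leaving out 1 array gave 1 to 5 for MT2 against GFP, 0 to 1 for NHA9 against GFP, 2 to 19 for AE against GFP, 2 to 14 for L-GMP against GMP, 7 to 16 for GFP against GMP, 0 to 4 for MT2 against NHA9, 7 to 13 for MT2 against AE and 5 to 17 for L-GMP against LSK. Whether numbers in the titles pair samples is not stated. Correlations of same-numbered deviations ran from -0.44 to 0.50, which does not settle it. A replicate block left 2 for MT2 and 2 for AE, and no other count moved by over 1.5 times with the block. Of single-gene values under these alternatives, 1167 kept direction and side of the threshold, 314 kept direction only, 21 gained the threshold and 1 reversed: Parp14 in MT2 against AE, which was 0.006 within tag A. Values under 60 limit what can be ordered among dim genes.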
